A study of Mus musculus with 3 samples.

Results

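The genes that make, break down and bind hyaluronan were followed in cultured cells labelled aortic endothelial. The cells came from mice labelled as knockouts of the serine/threonine kinase Pim1 and from wild-type mice. Defining endothelial markers such as Pecam1 and Cdh5 were above background in neither group. A probe was taken where it was no control and where the array's gene name was Has1, Has2, Has3, Hyal1, Hyal2, Cd44, Vcan (also written Cspg2), Tnfaip6 or Hapln1. This gave 19 probes of 9 genes, among 41174 probes and 19742 named genes on the array. Transcripts of the synthases Has1 and Has2 and of the hyaluronan-binding proteoglycan versican (Vcan) were higher in Pim1-/- cells. At the brightest probe of each they rose 6.86-fold, 6.38-fold and 2.03-fold in the mean of 3 arrays. Hyal1, Hyal2, Cd44 and Tnfaip6 did not pass the test, and Has3 and Hapln1 were too dim to be tested.

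The knockout cells were of the FVB/N Pim1 knockout strain and the wild-type cells of the FVB/N strain. Both came from mice labelled female and 12 weeks old, were described as primary mouse aortic endothelial cells (MAEC), were grown on gelatine-coated dishes and gave RNA 24 hours after seeding. Amplified RNA was hybridised to 3 two-colour arrays of 60-base oligonucleotides, each with knockout RNA in Cy5 (red) and wild-type RNA in Cy3 (green). The labels call the arrays biological replicates, do not say whether the wild-type RNA was 1 pool, and do not say which part of Pim1 was removed.

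Hyaluronan is a long unsulphated sugar chain of the pericellular matrix, spun out through the plasma membrane by the synthases Has1, Has2 and Has3 from activated sugars of the cytosol. Hyal2 at the cell surface cuts long chains and Hyal1 in lysosomes cuts the pieces further, while Cd44 is the main surface receptor. Versican, the link protein Hapln1 and Tnfaip6 (TSG-6), which moves heavy chains of the inter-alpha-inhibitor onto hyaluronan, tie it into larger complexes. In vessels hyaluronan is part of the endothelial surface coat and of the matrix laid down by mesenchymal cells.

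All ratios are knockout over wild type, and a probe was called when its adjusted p was under 0.05 (limma, Benjamini-Hochberg over 25192 tested probes). Signal well above background was found at 53.8% to 57.2% of probes in knockout channels, against 58.4% to 62.5% in wild-type channels. Array 1 stood apart from the others. Over the tested probes, which are not independent, its log2 ratios had r = 0.68 and 0.698 with arrays 2 and 3. Arrays 2 and 3 had r = 0.905 with each other. Values without array 1 are therefore given beside each hyaluronan gene named below whose call they change. Other log2 ratios moved too, and for the tested members their range with 1 array left out is given in the last section. The fits without array 1 rest on arrays 2 and 3 alone and lean on variances shared across probes. Their small adjusted p-values are not stronger evidence than those of all 3 arrays. Dyes were not swapped, so a dye effect and the genotype cannot be told apart. With 3 arrays the precision is limited, and p-values cover the spread between those arrays alone, which may be technical.

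Pim1 itself read 179, 163 and 144 intensity units in the knockout channel, against 350, 364 and 285 in the wild-type channel, a log2 ratio of −1.04 ± 0.10 (SD over 3 arrays, adjusted p of limma 0.00294), at a probe that checks the label only if it lies in the deleted part. Genes of the sex chromosomes went against the label female in the knockout channel but not in the wild-type channel. Xist, the RNA of the inactive X chromosome, had no knockout signal well above background and was at least 168-fold lower in knockout cells (adjusted p = 0.000127). The Y-linked Eif2s3y and Ddx3y had no wild-type signal well above background. Eif2s3y was at least 28.1-fold higher in knockout cells (adjusted p = 0.000309) and Ddx3y at least 12.1-fold (adjusted p = 0.00061). The bounds set the bright group's mean against the dim channel's reading, raised to the array's lowest well-measured signal where it was lower. They are open to dye bias. Sex and genotype cannot be told apart for any gene below.

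The probes that carried the calls, the silent second Has1 probe and an uncalled Vcan probe (the last listed) are shown because probes of 1 gene read differently. Each is given 5′ to 3′ with the coordinates of the array files (mm8). All lie on the minus strand, and they are complete for Vcan and the first 30 of 60 bases for the synthases. Exon and UTR positions in that build were not used here.
Has1 A_51_P492456, chr17:17548067-17548126: atttaagattcttcaatatggactgtattg
Has1 A_52_P440436, chr17:17551927-17551986: ggaaagggttttcatgaactcttttcatta
Has2 A_51_P213359, chr15:56495884-56495943: ctagtgggaaacaaacacaccctgacaata
Has2 A_52_P327764, chr15:56522048-56522107: ggtgtatttccgtggaatgagctaaaacac
Vcan A_52_P251703, chr13:90131463-90131522: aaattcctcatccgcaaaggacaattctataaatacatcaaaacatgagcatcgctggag
Vcan A_52_P168953, chr13:90199865-90205719: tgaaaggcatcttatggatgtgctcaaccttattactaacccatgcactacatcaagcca
The first-named probe of each gene is the one farther downstream along the strand. The coordinates of the last probe span 5855 bases, more than its own length.

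Has1, the synthase that is weakly expressed in most cells, gave 4152, 1947 and 1945 normalised intensity units in knockout cells on arrays 1, 2 and 3, against 457, 315 and 338 in wild-type cells. Every knockout value was above every wild-type value. The log2 ratios were 3.18, 2.63 and 2.52, a mean of 2.78 ± 0.36 (SD, n = 3 arrays, 95% confidence interval 2.39 to 3.16, limma adjusted p = 0.000597). In these whole cultures more cells that carry a transcript and more of it in each cell cannot be told apart. Has1 ranked 27 of 13484 tested genes by rise. The other Has1 probe, 3.9 kb upstream, was not well above background in either channel on any array and was not tested. Has1 lies 11.7 Mb from Pim1 on chromosome 17, and of 456 tested genes within 20 Mb of Pim1, 84 were called (18.4%, 39 higher and 45 lower), against 20.1% of all tested genes.

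Has2, the principal synthase of vascular development, gave 1651, 568 and 562 units in knockout cells, against 134, 106 and 143 in wild-type cells. The knockout values lay above all wild-type values, and the knockout value of array 1 stood far above those of arrays 2 and 3. The log2 ratios were 3.62, 2.42 and 1.97 (2.67 ± 0.85, interval 1.89 to 3.45, adjusted p = 0.00591), which put Has2 at rank 35 by rise. Its second probe, 26.2 kb upstream, gave 427, 207 and 241 units in knockout cells, against 84.7, 74.4 and 104 in wild-type cells, again without overlap. That probe rose by 1.68 ± 0.59 (fold 3.20, adjusted p = 0.00874). The average over both probes was 2.17 on the log2 scale (4.51-fold, adjusted p = 0.00727). The size of the Has2 change depended on the background correction: it was 10.2-fold without the offset of 50 units and 14.5-fold in the scanner software's own ratio, and in that ratio both probes read close to each other, at log2 ratios of 3.86 ± 0.78 and 4.06 ± 0.52. The probe of Has3, the third synthase, at chr8:109771563-109771622, was well above background on no array in the knockout channel and on 1 in the wild-type channel. It read 83.5, 76.6 and 82.2 units in knockout cells, against 79.9, 87.0 and 81.2 in wild-type cells, values that intermingle near the floor set by the offset.

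Versican carries hyaluronan-binding modules at its amino-terminal end and a lectin-like module at its carboxy-terminal end. Its brightest probe gave 2638, 2600 and 2405 units in knockout cells, against 1772, 1090 and 1025 in wild-type cells. The groups did not overlap. The knockout values were close together, and the smaller ratio of array 1 went with a higher wild-type value there. The log2 ratios were 0.57, 1.25 and 1.23 (1.02 ± 0.39, interval 0.61 to 1.43, adjusted p = 0.0147). The call was lost without array 2 (0.90, adjusted p = 0.112) and without array 3 (0.91, adjusted p = 0.117). The probe 68.4 kb upstream gave 276, 260 and 181 units in knockout cells, against 226, 174 and 148 in wild-type cells, which overlap between arrays although each array read higher in knockout. Its mean log2 ratio of 0.38 ± 0.17 did not pass (adjusted p = 0.0665). Of the other 3 Vcan probes, A_52_P1100423 was well above background on 2 arrays in each channel and read 0.12 ± 0.06 (adjusted p = 0.431), and A_52_P1044655 and A_52_P131855 were well above it on none. Averaged over its tested probes, Vcan read 0.51 (1.42-fold, adjusted p = 0.0308).

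Over the members, 4 of 13 tested probes and 3 of 7 tested genes were called, each higher in knockout and none lower. Among all tested probes 17.1% were called, 7.59% higher and 9.5% lower, and among all tested genes 20.1% were called, 8.67% higher and 11.4% lower. With each array centred on its median in place of loess, 1032 genes were called higher and 825 lower, against 1169 and 1541 with loess. The same 3 members were those without overlap between the channels, and 39.1% of all genes had none. Without array 1 the count of called members was 6, with Hyal2, Cd44 and Tnfaip6 added, and without array 2 or array 3 it was 2, Has1 and Has2. Over all tested genes the share called moved the same way, to 41.5% without array 1, 5.04% without array 2 and 4.75% without array 3.

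**Figure D1:**
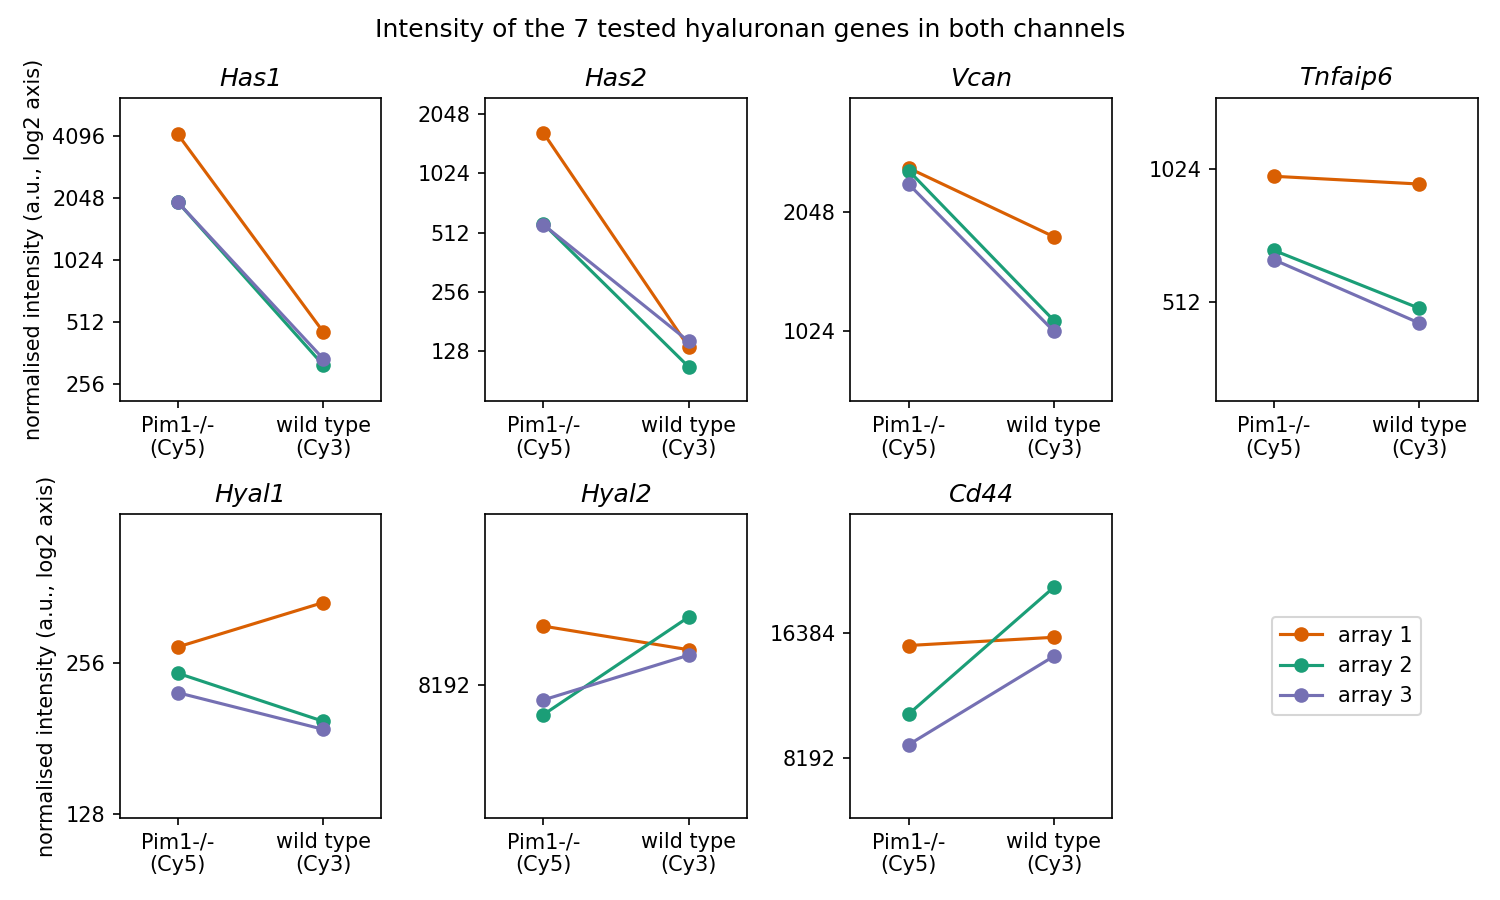
Normalised intensity (arbitrary units, log2 axis with its own range in each panel) of the brightest probe of the 7 tested genes in the Pim1-/- (Cy5) and wild-type (Cy3) channel, with 1 line for each of the 3 arrays. Has1, Has2 and Vcan lie higher in Pim1-/- cells on every array without overlap, while the lines of Hyal1 and Hyal2 run in both directions.

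Hyal1 and Hyal2, the hyaluronidases of somatic tissues, did not pass the test. Hyal2, at chr9:107430719-107430778, gave 10314, 7271 and 7708 units in knockout cells, against 9397, 10688 and 9197 in wild-type cells. It was higher in knockout on array 1 and lower on arrays 2 and 3, and the groups overlapped. Its mean log2 ratio was −0.23 ± 0.35 (interval −0.60 to 0.15, adjusted p = 0.372), and without array 1 it was −0.41 and called (adjusted p = 0.00742). Hyal1, at chr9:107437653-107437712, gave 275, 244 and 223 units in knockout cells, against 338, 196 and 189 in wild-type cells. Array 1 again had the opposite sign of the others, here lower in knockout. The mean log2 ratio was 0.09 ± 0.33 (interval −0.28 to 0.46, adjusted p = 0.736), and −0.05 ± 0.45 (adjusted p = 0.902) at a second probe that shares 50 of its bases.

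Cd44, the receptor through which cells bind and take up hyaluronan, did not pass the test with all 3 arrays. Its brightest probe, at chr2:102613589-102613648, gave 15285, 10436 and 8803 units in knockout cells, against 16000, 21145 and 14403 in wild-type cells. Knockout was lower on each array, by little on array 1, and the groups overlapped. The log2 ratios were −0.07, −1.02 and −0.71 (−0.60 ± 0.49, interval −1.08 to −0.12), and the adjusted p was 0.094. A probe 1.2 kb downstream read 0.14, −1.11 and −0.84 (−0.60 ± 0.65, adjusted p = 0.163). It was spotted repeatedly, and its SD over 7, 10 and 9 spots of the 3 arrays was 0.02, 0.04 and 0.01 on the log2 scale, far below the spread between arrays. Without array 1 Cd44 was called, at −0.86 (adjusted p = 9.81e-07). The third probe, 21.5 kb upstream, was well above background on 1 array in each channel and read 0.04 ± 0.22 (adjusted p = 0.846).

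Tnfaip6, at chr2:51878493-51878552, gave 984, 670 and 638 units in knockout cells, against 945, 496 and 460 in wild-type cells. Each array read higher in knockout, and the groups overlapped because array 1 was bright in both channels. The log2 ratios were 0.06, 0.43 and 0.47 (0.32 ± 0.23, interval 0.02 to 0.62, adjusted p = 0.134), and without array 1 the gene was called at 0.45 (adjusted p = 0.00228). The 2 probes of Hapln1, which clamps versican and related proteoglycans onto hyaluronan, were well above background on no array in the knockout channel and on at most 1 in the wild-type channel.

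**Figure D2:**
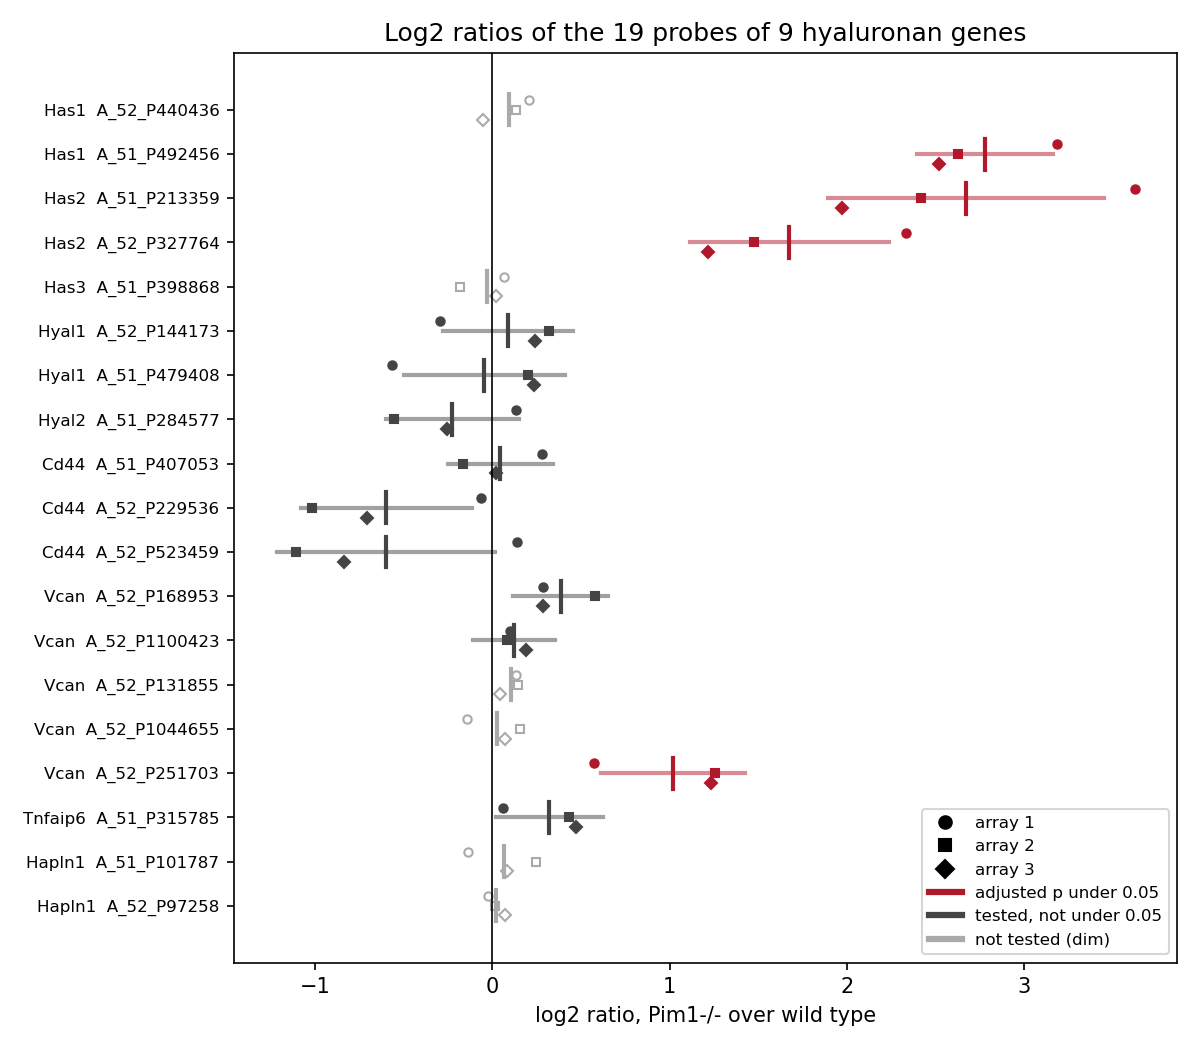
Log2 ratios, Pim1-/- over wild type, of all 19 probes of the 9 genes on the 3 arrays (circles, squares, diamonds), with the mean (vertical bar) and, where tested, the 95% confidence interval (horizontal bar). The 4 called probes of Has1, Has2 and Vcan lie above 0 on all 3 arrays, array 1 lies highest for Has1, Has2, Hyal2 and the 3 Cd44 probes, and the untested probes lie near 0.

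Beyond the members, 54 further genes of hyaluronan metabolism and binding were on the array, of which 38 were tested. Of these 5 were called higher, 5 lower and 28 in neither direction, with a median log2 ratio of −0.06 against −0.02 over all tested genes. Among all tested genes 8.67% were called higher and 11.4% lower. With the members, the 63 genes held 45 tested, 8 higher and 5 lower. The 13 calls were 24 without array 1, 6 without array 2 and 5 without array 3, beside shares of 41.5%, 5.04% and 4.75% of all tested genes in the same fits, and 9 higher and 2 lower with median centring.

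The 8 tested genes that make or carry activated sugars went in both directions, with 1 higher, 2 lower and a median of −0.16. Gfpt2, which catalyses the entry step of the hexosamine pathway, gave 979, 1252 and 1452 units in knockout cells, against 391, 359 and 453 in wild-type cells. Its values did not overlap, and it rose 3.04-fold (log2 ratio 1.60 ± 0.25, adjusted p = 0.00165). Ugdh, which makes UDP-glucuronic acid, gave 16476, 17919 and 20188 units in knockout cells, against 30083, 28654 and 25800 in wild-type cells. That fall of 0.63 ± 0.26 on the log2 scale (adjusted p = 0.0284) was lost in the software's ratio (adjusted p = 0.0665), with median centring (0.288), without array 2 (0.174) and without array 3 (0.0816). Slc35d1, a carrier of nucleotide sugars into the endoplasmic reticulum, was also lower, at −0.76 ± 0.13 (adjusted p = 0.00843), and was not called with median centring (0.0561), without array 2 (0.0874) or without array 3 (0.0763). Averaged over its tested probes, Slc35d1 read −0.47 (adjusted p = 0.0352).

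Of 9 genes for hyaluronidases and depolymerising proteins, 4 were tested and 1 was called, and Hyal4, Hyal5, Hyal6 and Spam1 were above background on no array in either channel. Cemip2, a membrane protein reported to depolymerise hyaluronan, gave 975, 763 and 594 units in knockout cells, against 1641, 1421 and 1172 in wild-type cells. It did not overlap and fell by 0.88 ± 0.12 on the log2 scale (adjusted p = 0.00521), a call lost without array 2 (0.0624) and without array 3 (0.07). Its relative Cemip gave 7508, 2647 and 2049 units in knockout cells, against 5016, 9753 and 7365 in wild-type cells. Array 1 was higher in knockout and arrays 2 and 3 were lower, so the mean of −1.05 ± 1.41 did not pass (adjusted p = 0.222), while without array 1 it was −1.86 and called (adjusted p = 1.44e-13). The average over the tested probes of Cemip was −0.69 (adjusted p = 0.308). None of the 7 tested surface receptors was called.

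Among 18 link proteins, proteoglycans and cross-linkers, 9 were tested, 2 were higher (Vcan and Ptx3) and 1 was lower (Acan). Ptx3, a pentraxin that cross-links heavy-chain-bearing hyaluronan, gave 630, 347 and 430 units in knockout cells, against 121, 105 and 141 in wild-type cells. It rose 3.74-fold without overlap (log2 ratio 1.90 ± 0.41, adjusted p = 0.00252), 5.83-fold without the offset and 8.44-fold in the software's ratio. Acan, which encodes aggrecan, the large hyaluronan-binding proteoglycan of cartilage and of the same family as versican, gave 135, 273 and 237 units in knockout cells, against 762, 1866 and 2032 in wild-type cells. It moved the opposite way to Vcan, by −2.79 ± 0.30 (adjusted p = 0.000461), 6.91-fold lower in knockout, again without overlap. Itih2, which encodes a heavy chain of the inter-alpha-inhibitor, read −1.90, −0.62 and −0.67 (−1.06 ± 0.72) and did not pass (adjusted p = 0.0511). It was called without array 1, at −0.65 (adjusted p = 4.36e-05), and under 5 other settings, with adjusted p between 0.0335 and 0.0479.

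Of the 5 tested proteases that cleave versican, 3 were called higher and none lower, with a median log2 ratio of 0.85. Adamts15 gave 181, 718 and 490 units in knockout cells, against 84.2, 88.8 and 120 in wild-type cells, without overlap. It rose 4.14-fold (log2 ratio 2.05 ± 0.96, adjusted p = 0.0175), 7.83-fold without the offset and 13.9-fold in the software's ratio, and was not called without array 2 (0.0594) or array 3 (0.115). Adamts9 gave 369, 307 and 287 units in knockout cells, against 195, 116 and 151 in wild-type cells, a log2 ratio of 1.08 ± 0.28 (adjusted p = 0.00657) that was lost without array 3 (0.0567). Averaged over its tested probes, Adamts9 read 0.56 (adjusted p = 0.0194). Adamts4 read 0.85 ± 0.20 (adjusted p = 0.00867) and was lost without array 2 (0.0773) and without array 3 (0.0748). In the software's ratio Adamts9 and Adamts4 rose 3.45-fold each. Of 7 tested partners and sheddases of CD44, Ezr, a linker of membrane proteins to actin, was called: it gave 21885, 21180 and 22029 units in knockout cells, against 33521, 38052 and 33493 in wild-type cells. Its fall of 0.69 ± 0.14 on the log2 scale (adjusted p = 0.012) was lost with median centring (0.219), without array 2 (0.109) and without array 3 (0.0942).

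**Figure D3:**
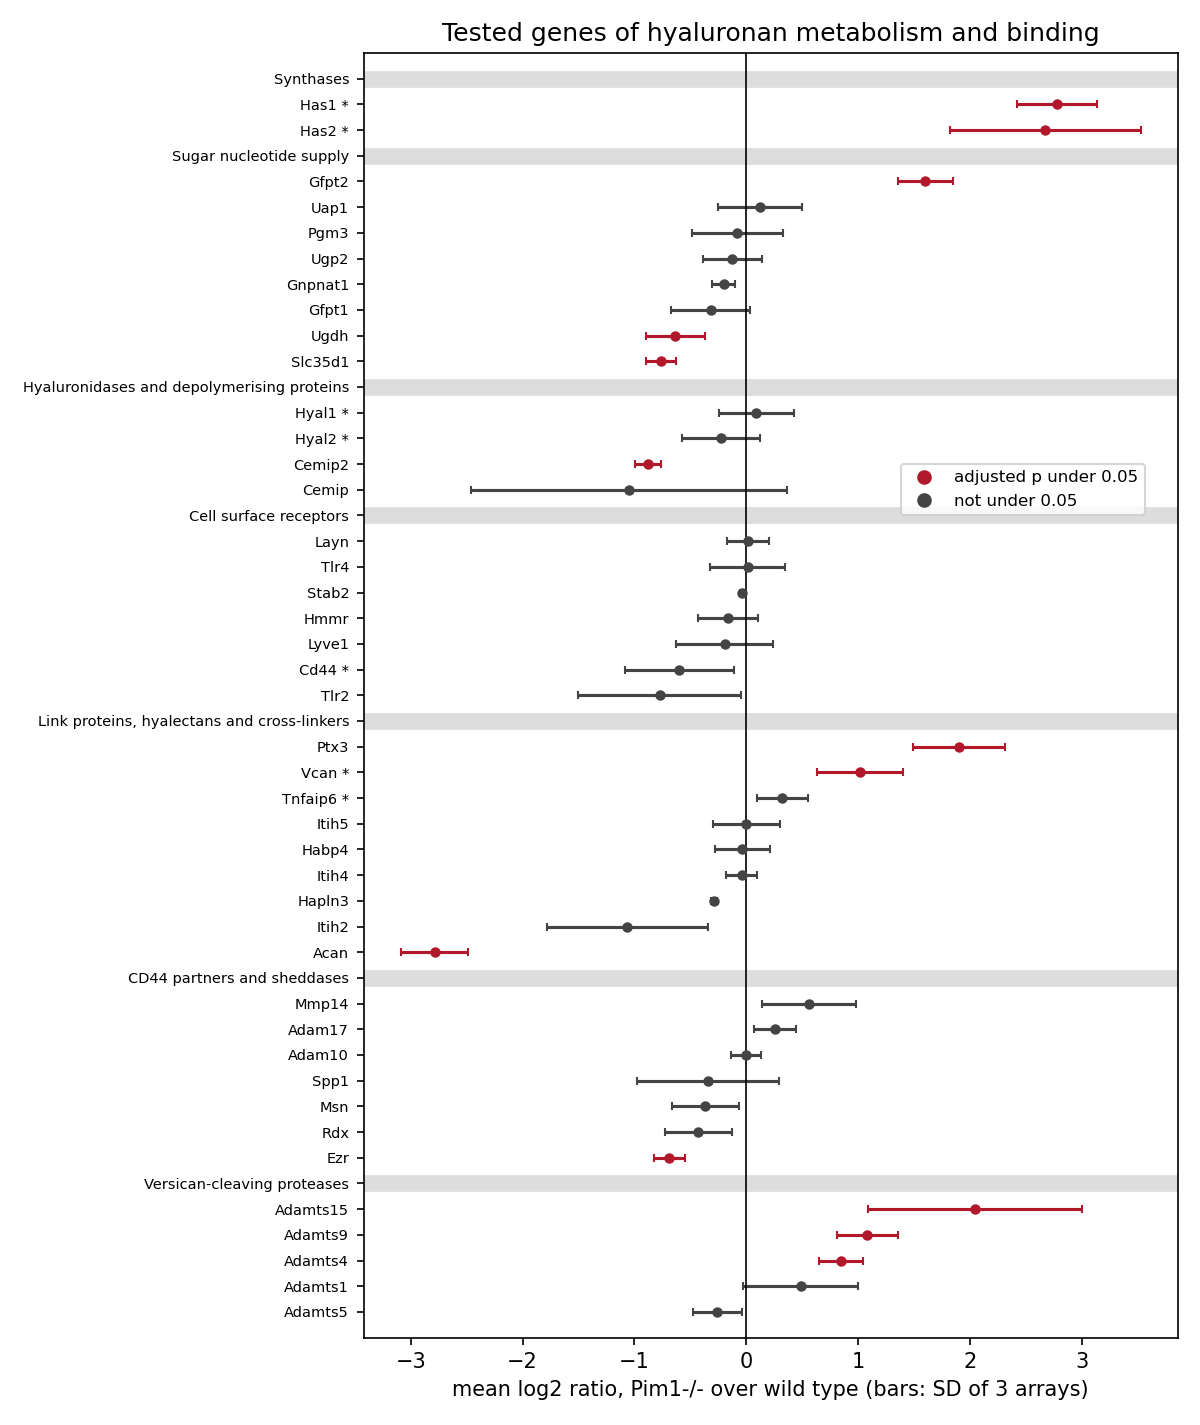
Mean log2 ratio, Pim1-/- over wild type, of 42 tested genes of hyaluronan metabolism and binding, grouped by role (grey bands), with the SD of 3 arrays as bars and called genes in red. Asterisks mark the genes the probes were chosen for. Has1, Has2, Gfpt2, Ptx3, Vcan and 3 Adamts genes are the 8 red points above 0, and Acan is the lowest point.

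Markers of cell types other than the labelled one also differed between the channels, some higher and some lower in knockout. Of 15 fibroblast markers 13 were tested, 8 were higher and 1 lower (median log2 ratio 0.77). Among all tested genes 8.67% were called higher and 11.4% lower, shares that belong beside each marker list here. The summed intensity of the fibroblast markers was 250208 to 285208 in knockout channels, against 202162 to 235287 in wild-type channels. Most of those sums came from Col1a1 and Col1a2, which read 0.62 ± 0.25 and −0.70 ± 0.15 (adjusted p = 0.0287 and 0.0124). Fap and Tcf21 were above background in neither channel. Col3a1 and Dcn, collagen and proteoglycan genes of fibroblasts, read 3.09 ± 1.32 and 2.70 ± 0.96 (adjusted p = 0.0129 and 0.00785). Of 13 mesothelial and epithelial markers 11 were tested and 7 were lower (median −1.35), with sums of 11389 to 14397 in knockout channels, against 80762 to 100896 in wild-type channels. Epcam and Muc16 were above background in neither channel, and Krt19 and Msln, a keratin and the mesothelial surface protein mesothelin, read −4.12 ± 0.48 and −3.41 ± 0.18 (adjusted p = 0.000392 and 0.000219).

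Of 12 smooth muscle and pericyte markers 10 were tested, 1 was higher and 4 were lower (median −0.54), with sums of 33743 to 41082 in knockout channels, against 43768 to 60247 in wild-type channels. Most of those sums came from Acta2, which read −0.29 ± 0.39 and was not called (adjusted p = 0.287). Rgs5 was above background in neither channel, and Cspg4 and Myl9 read −2.57 ± 0.25 and −2.11 ± 0.56. The 1 higher marker was Lmod1, at 0.67 ± 0.23 (adjusted p = 0.0208). Of 14 macrophage and leukocyte markers 8 were tested, 1 was higher and 2 were lower, with Adgre1, Itgam, Tyrobp, C1qa and Aif1 above background in neither channel. Their sums were 2921 to 3296 in knockout channels, against 4198 to 5469 in wild-type channels, and Lyz2 and Cd14 read −1.78 ± 0.51 and −0.87 ± 0.33.

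Of 18 endothelial markers 7 were tested, 2 were higher and 1 was lower. Pecam1, Cdh5, Tie1, Erg and Sox17 were above background in neither channel, so defining markers of the labelled cell type were not detected. The sums were 8852 to 11679 in knockout channels, against 4885 to 5549 in wild-type channels, and Eng and Egfl7 read 2.51 ± 0.24 and 1.42 ± 0.23 (adjusted p = 0.000436 and 0.00215). Ramp2, named after its value was seen because it was the 1 lower marker, read −0.68 ± 0.11 (adjusted p = 0.011). The part of these markers in the Has1, Has2, Vcan and Acan results was not tested.

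The 250 bases before the transcription start were listed by RefSeq (GRCm38.p6) for 7 of the 9 members, without Has2 and Has3. They are shown for the called members listed, Has1 and Vcan, to set their letters side by side. Matches to 5 motifs were searched on both strands: the cyclic AMP response element TGACGTCA, the AP-1 element TGANTCA, the GC box GGGCGG, the TATA box TATAAA and the STAT element TTCNNNGAA. Capitals mark matches on either strand.
Has1, chr17:17855189-17855438, minus strand: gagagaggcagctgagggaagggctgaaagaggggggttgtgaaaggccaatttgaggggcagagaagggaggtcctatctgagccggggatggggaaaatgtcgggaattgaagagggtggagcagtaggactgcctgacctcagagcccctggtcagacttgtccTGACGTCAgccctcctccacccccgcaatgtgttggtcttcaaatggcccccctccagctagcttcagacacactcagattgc
Vcan, chr13:89742513-89742762, minus strand: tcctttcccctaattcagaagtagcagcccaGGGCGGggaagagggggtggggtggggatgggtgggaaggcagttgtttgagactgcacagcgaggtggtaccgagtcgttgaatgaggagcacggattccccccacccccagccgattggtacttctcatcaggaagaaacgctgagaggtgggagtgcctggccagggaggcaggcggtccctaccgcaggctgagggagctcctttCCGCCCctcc
The Has1 window held TGACGTCA at bases 83 to 76 before the start, which was found in 1.55% of 32851 windows of the same length and in no other member. The Vcan window held GGGCGG at bases 219 to 214 and 10 to 5 before the start, a match found in 32.7% of all windows and in 4 of the 7 members (Vcan, Tnfaip6, Hyal1 and Hyal2). TGANTCA and TTCNNNGAA, present in 6.75% and 7.02% of all windows, were matched only in Tnfaip6 among the members, and TATAAA, present in 12.4%, in none. Has1 and Vcan, both higher in knockout, shared none of the 5 motifs. A match is a description of letters, not of a bound site.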

How the data were processed

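The deposited scanner files gave, for 45018 spots per array and each channel, the pixel intensity (mean and median) and the intensity of the local background, per the file headers. Agilent Feature Extraction 9.5.3.1 is named in the submitters' processing notes. Its log10 ratio, red over green, also stands in these files per their headers, and is the log10 value in the deposited value table. Other deposited columns used here were flags for spots well above background, saturated or outlying, per the file headers.

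Mean intensities were background-corrected with normexp (offset 50), which pulls ratios of dim probes towards 0, and normalised within arrays by loess, with 1639 control spots and outlier-flagged spots (121, 140 and 136) at weight 0. Flagged spots were then left out and spots of a probe averaged. Channel intensities were taken after loess and Aquantile and include the offset. The test took probes with signal well above background in either channel on 2 or more arrays, and a gene was given by its brightest tested probe. No member spot was saturated. Log2 ratios were set against 0 in limma 3.58.1 (R 4.3.3, lmFit and eBayes, two-sided, prior degrees of freedom 3.47), and the pipeline was tested on simulated data. Motifs were counted with Python 3.11.15. Probes were named through RefSeq tables of GRCm38, used for names only: 24359 by accession, 110 by another accession, 6201 by symbol, 2381 by synonym and 8059 not at all, while 64 lost a name whose gene lies on another chromosome, and 253 antisense probes were left out of gene values. All arrays shared 1 slide and 1 scan date.

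The members and lists were chosen with earlier results of these data known, so their counts carry no test. Some genes counted in the list totals are not reported here. Named were every member, called or at least 2-fold changed genes of the pathway lists, Pim1, Xist, Eif2s3y and Ddx3y, and the 2 called markers with the largest change of each list. Col1a1, Col1a2, Acta2, Lmod1 and Ramp2 were added after their values were seen. Alternatives were other background corrections and normalisations, the software's ratio, the value table, other filters, a separate-channel fit (statmod 1.5.0), an intensity trend with robust variances, averaging the probes of a gene, and each array left out in turn.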

Additional observations from a re-analysis of the deposited data

How the results depend on the processing

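Under the 12 alternatives that kept all 3 arrays, Has1, Has2 and Vcan were called each time and no other member was. Among them, Aquantile left the members' ratios unchanged and the value table repeated the software's ratio, so neither was a separate check. Leaving out 1 array moved more. The count of called probes ranged from 877 to 9150 (4305 with all), of called genes from 640 to 5592 (2710 with all), of called members from 2 to 6 (3 with all) and of called genes over all pathway lists from 5 to 24 (13 with all). The counts fell without array 2 or 3 and rose without array 1. With median centring, 2710 probes were called. Leaving out 1 array gave log2 ratios of 2.57 to 2.90 for Has1 and 2.20 to 3.02 for Has2, called each time (highest adjusted p = 0.0115 and 0.0468). It gave 0.90 to 1.24 for Vcan, −0.86 to −0.39 for Cd44, −0.41 to −0.060 for Hyal2 and 0.25 to 0.45 for Tnfaip6. Hyal1 ranged from −0.026 to 0.28 and changed sign without array 2 (−0.026, adjusted p = 0.963). The causes were not tested.

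The test was paired by array, since each array is 1 ratio of both genotypes. A slide or scan date block was not run because all arrays shared both. Dim probes such as those of Has2 and Adamts15 limit the precision of fold sizes, since their wild-type signal lay close to background.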
